A study of Mus musculus with 11 samples.

Results

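Alveolar type 1 cells are the thin, flat epithelial cells of the gas exchange surface. They cover most of the alveolar wall, lie against the capillary endothelium across a shared basement membrane, and are replaced after injury by type 2 cells, the surfactant producers, which pass through an intermediate state marked by the keratin Krt8. Their identity is known to rest on the transcription factor NKX2-1 and on the coactivators YAP and TAZ, which act through TEAD factors. The genes described here are 8 that mark type 1 cells in mouse lung: Ager, Akap5, Pdpn, Rtkn2, Hopx, Aqp5, Igfbp2 and Cav1. They were listed by symbol and matched to Ensembl rows, and all 8 were found among the 23255 genes measured. All 8 also passed the filter on low values, set at 1 CPM on average across libraries, which left 16225 genes to test.

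Total RNA of lung from C57BL/6 mice was sequenced in 11 libraries. In 5 of them the mice had received naphthalene and then osimertinib, a drug that blocks the EGF receptor, in 3 they had received naphthalene alone, which damages airway club cells, and 3 came from untreated control mice. The naphthalene exposure is thus common to the osimertinib and naphthalene groups. The labels used here state no dose, time, age, sex or batch and do not say whether each library is a separate animal, so the spread between libraries may be technical. Lung tissue holds many cell types, and fewer type 1 cells cannot be told apart from less RNA per type 1 cell. Cav1 is also strongly expressed by endothelium, and Pdpn by lymphatic vessels and mesothelium, so these genes are not read as type 1 cells alone.

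The deposited values are CPM of a normalised library size and correspond to 5045361 to 13009975 gene reads per library. In the 3 naphthalene libraries and in osimertinib 2, 1 gene without a name in the annotation took 43.9 to 60.3% of the reads, against 0.0165 to 0.0337% in the other 7 libraries, which left 2018541 to 2965328 reads for all other genes. No control library had this high read share, so in naphthalene against control the share and the treatment cannot be told apart. The members were nonetheless well covered, with 129 reads (Igfbp2 in naphthalene 2) as the fewest and 13853 (Ager in control 1) as the most. The values of 0 members were duplicated in another gene's row. Rtkn2 and Hopx share exon bases with antisense genes (216 with Gm16212 and 412 with Hopxos), and strand use in counting is not given in the sources used here. These antisense genes were low, at up to 1.15 and 7.06 CPM in any library.

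Promoter windows are shown for Akap5 and Hopx, the members that stood furthest apart from each other in osimertinib 3. The windows run from 250 bases before to 50 bases after a transcript start, are taken from RefSeq on GRCm38.p6 (an earlier build than the GRCm39 of the submitters' processing notes), and read 5′ to 3′ along the gene. Capitals mark a match to GGAATG, a core bound by TEAD factors, or to CAAGTG, a core of the kind bound by NK2 homeobox factors such as NKX2-1, on either strand.
Akap5, chr12:76324641-76324940, plus strand: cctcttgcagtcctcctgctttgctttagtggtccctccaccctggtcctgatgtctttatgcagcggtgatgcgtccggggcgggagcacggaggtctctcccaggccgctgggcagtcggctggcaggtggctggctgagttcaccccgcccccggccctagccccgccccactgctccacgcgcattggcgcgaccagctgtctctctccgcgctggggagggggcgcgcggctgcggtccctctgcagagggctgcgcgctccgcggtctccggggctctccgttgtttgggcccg
Hopx, chr5:77095218-77095517, minus strand: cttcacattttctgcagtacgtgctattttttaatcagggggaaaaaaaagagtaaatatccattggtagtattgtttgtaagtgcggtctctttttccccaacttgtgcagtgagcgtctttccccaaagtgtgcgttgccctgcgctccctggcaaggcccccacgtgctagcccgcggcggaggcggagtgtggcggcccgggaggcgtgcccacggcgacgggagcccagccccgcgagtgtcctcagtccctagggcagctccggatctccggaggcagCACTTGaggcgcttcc
The Akap5 window held neither core. The Hopx window shown held CAAGTG once, read as CACTTG along the gene and beginning 35 bases after the start. The other Hopx window, not shown, held neither core. Windows were found for 7 of the 8 members (10 windows, Rtkn2 having none). Of these members 0 had the TEAD core and 1, Hopx, had the NK2 core, in the window shown only. Of 32851 windows of 300 bases in the table, 14.66% held the TEAD core and 13.56% the NK2 core. These shares are per window, and the counts before them per member. A match is a string of letters, and its absence says only that these letters are not in the window.

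Per length of merged exons, Ager was the most abundant member, with a mean of 338 CPM per 1000 bases over the 11 libraries. Cav1 followed at 193 and Hopx at 191 CPM per 1000 bases, then Akap5 at 59.4, Pdpn at 41.7, Aqp5 at 40.3, Rtkn2 at 32.9 and Igfbp2 at 31.2. Cav1 and Hopx did not differ in this order beyond their spread, and neither did Pdpn and Aqp5 or Rtkn2 and Igfbp2. In control lungs, for example, Cav1 stood at 179 ± 11.1 and Hopx at 188 ± 14.4 CPM per 1000 bases (SD, n = 3 each). Across all 11 libraries the steadiest member was Cav1, whose log2(value + 1) had an SD of 0.14, followed by Ager and Rtkn2 (0.20 each) and Aqp5 (0.22). Pdpn (0.26), Igfbp2 (0.34), Hopx (0.34) and Akap5 (0.35) varied more. The median SD was 0.17 among the 2838 genes that averaged 50 CPM or more, a range that holds all 8 members.

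The receptor and the membrane proteins of the type 1 cell surface are described first. Ager encodes RAGE, a pattern recognition receptor that sits at high density on the basolateral membrane of type 1 cells. Ager had 631, 577, 631, 769 and 883 CPM in osimertinib libraries 1 to 5, 671, 642 and 793 CPM in naphthalene libraries 1 to 3 and 787, 756 and 820.3 CPM in control libraries 1 to 3. It averaged 698 ± 126 CPM with osimertinib (SD, n = 5), 702 ± 80.2 CPM with naphthalene (SD, n = 3) and 788 ± 32.4 CPM in control (SD, n = 3). Osimertinib 1, 2 and 3 and naphthalene 1 and 2 lay below every control library, while osimertinib 5 was the highest library of all, so the groups overlapped.

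Pdpn encodes podoplanin, the mucin-like glycoprotein known as T1α that binds the platelet receptor CLEC-2. Pdpn had 58.6, 52.1, 71.9, 70.1 and 85.8 CPM in osimertinib libraries 1 to 5, 81.5, 73.2 and 103 CPM in naphthalene libraries 1 to 3 and 80.5, 76.9 and 79.7 CPM in control libraries 1 to 3. It averaged 67.7 ± 13.0 CPM with osimertinib (SD, n = 5), 86.0 ± 15.5 CPM with naphthalene (SD, n = 3) and 79.0 ± 1.86 CPM in control (SD, n = 3). The 3 control libraries lay close together, osimertinib 1 to 4 lay below all of them, and naphthalene 3 was the highest library.

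Aqp5 encodes aquaporin 5, the apical water channel of type 1 cells. Aqp5 had 82.0, 84.7, 120.1, 103 and 108 CPM in osimertinib libraries 1 to 5, 95.03, 89.0 and 129.9 CPM in naphthalene libraries 1 to 3 and 109, 112 and 119 CPM in control libraries 1 to 3. It averaged 99.5 ± 16.0 CPM with osimertinib (SD, n = 5), 105 ± 22.1 CPM with naphthalene (SD, n = 3) and 113 ± 4.93 CPM in control (SD, n = 3). Osimertinib 1 and 2 and naphthalene 1 and 2 were the 4 lowest libraries, and naphthalene 3 and osimertinib 3 were the highest of their groups and above all controls.

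Cav1 encodes caveolin 1, the coat protein of caveolae, flask-shaped pits that are abundant in type 1 cells and in endothelium. Cav1 had 630.0, 754, 572, 699 and 754 CPM in osimertinib libraries 1 to 5, 653, 671 and 732 CPM in naphthalene libraries 1 to 3 and 648, 628 and 575 CPM in control libraries 1 to 3. It averaged 682 ± 79.7 CPM with osimertinib (SD, n = 5), 685 ± 41.3 CPM with naphthalene (SD, n = 3) and 617 ± 38.1 CPM in control (SD, n = 3). All 3 naphthalene libraries were above all 3 control libraries, with the lowest naphthalene value at 653 CPM and the highest control value at 648 CPM, and the osimertinib libraries spanned both groups.

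The remaining members act inside the cell or are secreted. Hopx encodes a homeodomain protein that does not bind DNA itself and marks type 1 cells from early in their differentiation. Hopx had 239, 204, 467, 269 and 312 CPM in osimertinib libraries 1 to 5, 235, 229 and 366 CPM in naphthalene libraries 1 to 3 and 309.7, 278 and 268 CPM in control libraries 1 to 3. It averaged 298 ± 102 CPM with osimertinib (SD, n = 5), 276 ± 77.5 CPM with naphthalene (SD, n = 3) and 285 ± 21.8 CPM in control (SD, n = 3). Osimertinib 3 was far above the other osimertinib libraries, naphthalene 3 was far above the other naphthalene libraries, and osimertinib 2 was the lowest of all.

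Akap5 encodes an A-kinase anchoring protein that holds protein kinase A, protein kinase C and calcineurin at the membrane. Akap5 had 288, 397, 219.7, 396 and 447 CPM in osimertinib libraries 1 to 5, 525, 445 and 424 CPM in naphthalene libraries 1 to 3 and 415, 479 and 424 CPM in control libraries 1 to 3. It averaged 349.7 ± 93.1 CPM with osimertinib (SD, n = 5), 465 ± 53.2 CPM with naphthalene (SD, n = 3) and 439 ± 34.5 CPM in control (SD, n = 3). Osimertinib 3 and osimertinib 1 were the lowest libraries, and the other 3 osimertinib libraries lay within or near the range of the naphthalene and control groups.

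Rtkn2 encodes rhotekin 2, an intracellular signalling protein. Rtkn2 had 163, 180.3, 154, 173 and 211 CPM in osimertinib libraries 1 to 5, 188, 184 and 233 CPM in naphthalene libraries 1 to 3 and 201, 145 and 172 CPM in control libraries 1 to 3. It averaged 176 ± 21.6 CPM with osimertinib (SD, n = 5), 202 ± 26.8 CPM with naphthalene (SD, n = 3) and 173 ± 28.3 CPM in control (SD, n = 3). The groups overlapped, with control 2 the lowest and naphthalene 3 the highest library.

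Igfbp2 encodes a secreted protein that binds insulin-like growth factors and is found in mature type 1 cells of adult mouse lung. Igfbp2 had 43.4, 35.7, 70.9, 51.4 and 65.0 CPM in osimertinib libraries 1 to 5, 62.8, 51.0 and 83.1 CPM in naphthalene libraries 1 to 3 and 62.7, 49.5 and 59.0 CPM in control libraries 1 to 3. It averaged 53.3 ± 14.7 CPM with osimertinib (SD, n = 5), 65.6 ± 16.2 CPM with naphthalene (SD, n = 3) and 57.1 ± 6.80 CPM in control (SD, n = 3). Osimertinib 2 was the lowest library, naphthalene 3 the highest, and all 3 groups overlapped.

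**Figure D1:**
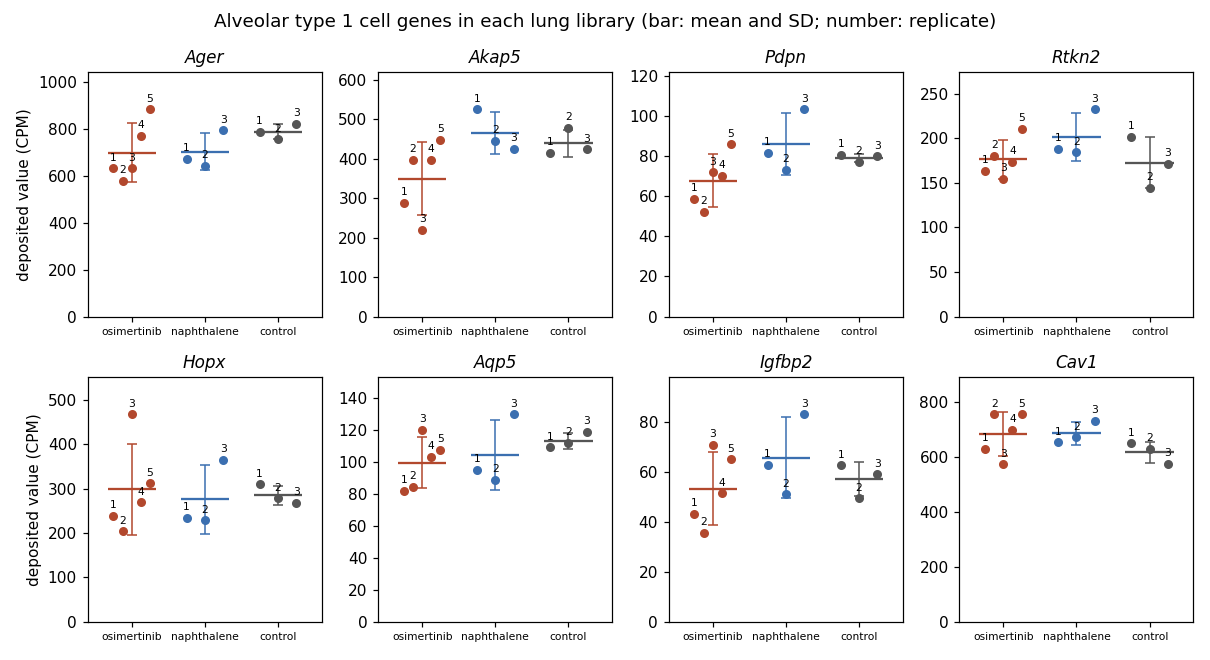
Deposited values (CPM of a normalised library size, vertical axis from 0) of the 8 alveolar type 1 genes in the osimertinib, naphthalene and control libraries; points are libraries numbered by replicate, and bars give the group mean and SD. The groups overlap in every panel for every pair, except Cav1, where the 3 naphthalene libraries (653 to 732 CPM) lie above the 3 control libraries (575 to 648 CPM).

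Single libraries set much of this spread. Naphthalene 3 was the highest naphthalene library for 7 of the 8 genes, the exception being Akap5, and naphthalene 2 the lowest for 6. Osimertinib 5 was the highest osimertinib library for 4 genes and osimertinib 2 the lowest for 4. Relative to the control mean, the 8 genes averaged a log2 difference of −0.31 in osimertinib 1, −0.30 in osimertinib 2, −0.07 in osimertinib 3, −0.06 in osimertinib 4 and 0.14 in osimertinib 5, so 4 of the 5 osimertinib libraries lay below 0. The same average was −0.01, −0.12 and 0.27 in naphthalene 1, 2 and 3. In osimertinib 2, as in the naphthalene libraries, the unnamed gene took much of the reads, and in the other osimertinib libraries it did not. The part of the read share in these values was not tested beyond the comparisons within libraries of like share given below.

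The members also differed from each other within libraries. In osimertinib 3 their log2 differences from the control mean ran from −0.99 for Akap5 to 0.71 for Hopx, with an SD over the 8 genes of 0.49, against 0.12 to 0.34 in the other osimertinib libraries, 0.19 to 0.21 in the naphthalene libraries and 0.07 to 0.12 in the control libraries. The control libraries themselves make up the control mean, which lowers their own spread around it. Within osimertinib 3 Hopx exceeded Akap5 by 1.09 on the log2 scale of the deposited values, which are not per length. In each of the other 10 libraries Hopx was below Akap5 on this scale, with differences between −1.16 and −0.21.

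**Figure D2:**
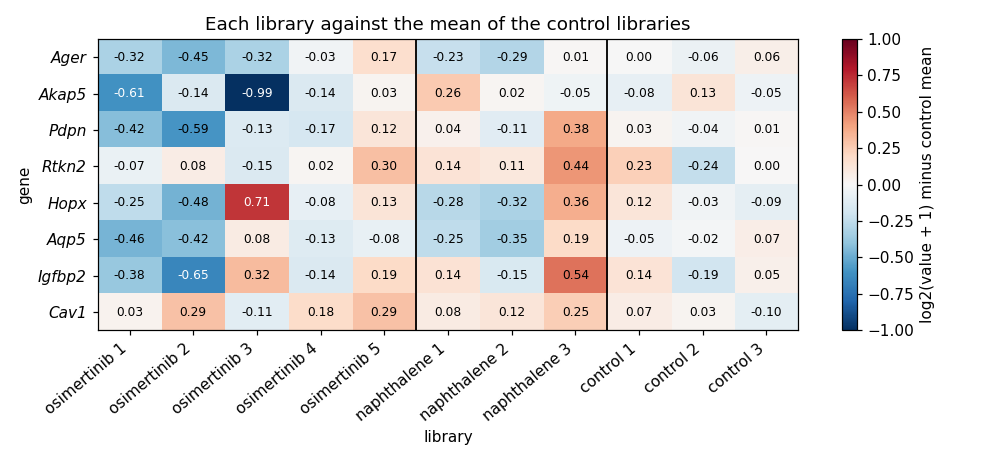
Log2(value + 1) of each gene (rows) in each library (columns; osimertinib, naphthalene, then control) minus the mean of the control libraries, printed in each cell; red is above and blue below that mean. Osimertinib 3 holds both the lowest cell (Akap5, −0.99) and the highest (Hopx, 0.71), and naphthalene 3 is above 0 for 7 genes.

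The first comparison, of naphthalene with control lungs, concerns the state of these genes after the injury without the drug. Of the 8 members, 0 were called (adjusted p under 0.05 with limma over all 16225 genes), and 0 had an unadjusted p under 0.05. The background was equally empty: 0 genes, 0%, were called with limma, with 1211 at an unadjusted p under 0.05. On the recovered reads edgeR called 0 and DESeq2 11, 0 of them members. DESeq2 gave no adjusted p for 11369 of the 16225 genes here, so its calls are out of 4856. Rtkn2 had the highest difference, 0.23 (SE 0.15, 95% interval −0.10 to 0.55, adjusted p = 0.795), and Ager the lowest, −0.17 (SE 0.17, 95% interval −0.54 to 0.20, adjusted p = 0.894). The 8 differences had a median of 0.09, with 5 above and 3 below 0, where the median gene lay at −0.06 and 38% of all genes lay above 0. Cav1, at 0.15 (SE 0.14, 95% interval −0.15 to 0.45, adjusted p = 0.882), was the 1 member of 8 whose groups did not overlap, and 16.2% of all genes had groups that did not. Aqp5 differed by −0.13 (95% interval −0.49 to 0.22), Hopx by −0.08 (95% interval −0.65 to 0.50), Akap5 by 0.08 (95% interval −0.41 to 0.57), Pdpn by 0.11 (95% interval −0.27 to 0.48) and Igfbp2 by 0.18 (95% interval −0.35 to 0.70). Intervals this wide leave room for changes in either direction, and a missed threshold does not show that the groups are alike. Directions are by the deposited scaling: under a scaling to equal read totals, the median gene stood at −1.45 and the median member at −1.46.

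Several of these directions rested on naphthalene 3. Without that library Pdpn stood at −0.03, Igfbp2 at −0.0041 and the median of the 8 at −0.02, with 3 of 8 above 0. Rtkn2 stood at 0.12 and Hopx and Aqp5 at −0.30 each. Aqp5 was also at −0.03 without naphthalene 2 and −0.08 without naphthalene 1.

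The second comparison, of osimertinib with naphthalene lungs, concerns the drug given on top of the injury. Akap5 and Pdpn had the largest differences, both downward, and neither was called: −0.45 (SE 0.20, 95% interval −0.89 to −0.01, adjusted p = 0.475) for Akap5 and −0.35 (SE 0.15, 95% interval −0.68 to −0.01, adjusted p = 0.466) for Pdpn. They were the 2 members with an unadjusted p under 0.05 (0.046 and 0.043), where 10.3% of all genes had such a p. In all, 0 of 8 members and 0 of 16225 genes, 0%, were called with limma, with 1671 genes at an unadjusted p under 0.05, and edgeR called 0 and DESeq2 21 genes, 0 of them members. The differences had a median of −0.13, with 7 of 8 below 0, where the median gene lay at 0.06 and 39.5% of all genes lay below 0. Without naphthalene 3 the median was −0.03, with 4 of 8 below 0. For 0 of 8 members did the groups not overlap, against 5.94% of all genes.

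Igfbp2, at −0.31 (SE 0.22, 95% interval −0.78 to 0.16, adjusted p = 0.66), and Rtkn2, at −0.19 (95% interval −0.48 to 0.10), were further values below 0. Ager differed by −0.02 (95% interval −0.35 to 0.31) and Cav1 by −0.01 (95% interval −0.28 to 0.26), and Aqp5 by −0.07 (95% interval −0.39 to 0.25). Hopx, at 0.09 (95% interval −0.43 to 0.60), was the 1 member above 0, and without osimertinib 3 it lay at −0.09. The Akap5 difference was −0.29 without osimertinib 3, and without naphthalene 3 Pdpn lay at −0.21, Igfbp2 at −0.13 and Rtkn2 at −0.09.

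Osimertinib 2 could be set against the naphthalene libraries at like read share, as a single library whose spread was assumed and not measured. There Igfbp2 differed by −0.83, Pdpn by −0.70, Hopx by −0.40, Aqp5 and Ager by −0.28 each, Akap5 by −0.22, Rtkn2 by −0.15 and Cav1 by 0.14. The median member lay at −0.28 with 7 of 8 below 0, and the median gene at 0.0036. With 1 library in an arm, only the differences are given here.

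Osimertinib was also set against control, the comparison that takes in both exposures. Again 0 of 8 members were called and 0 had an unadjusted p under 0.05, while 1 of 16225 genes, 0.00616%, was called with limma (779 at an unadjusted p under 0.05, and 1 with edgeR and 75 with DESeq2, 0 of them members). Akap5 was lowest, at −0.37 (SE 0.20, 95% interval −0.81 to 0.07, adjusted p = 0.999), followed by Pdpn at −0.24 (95% interval −0.57 to 0.09), Aqp5 at −0.20 (95% interval −0.52 to 0.12) and Ager at −0.19 (95% interval −0.52 to 0.14). Igfbp2 differed by −0.13 (95% interval −0.60 to 0.34), Rtkn2 by 0.04 (95% interval −0.25 to 0.33) and Hopx by 0.01 (95% interval −0.51 to 0.52). Cav1 was highest, at 0.14 (SE 0.12, 95% interval −0.13 to 0.41, adjusted p = 0.999). Akap5 lay at −0.22 without osimertinib 3, and Igfbp2 at −0.0037 without osimertinib 2. The median was −0.16 with 5 of 8 below 0, beside a median gene at −0.01 and 52% of all genes below 0. The groups did not overlap for 0 of 8 members and for 6.34% of all genes.

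In osimertinib 1, 3, 4 and 5 against control, libraries that all lack the high read share, the median of the members was −0.07. Akap5 there differed by −0.43, Pdpn and Aqp5 by −0.15 each, Ager by −0.13, Igfbp2 by −0.0037, Rtkn2 by 0.03, Cav1 by 0.10 and Hopx by 0.13. With limma 0 members were called (lowest adjusted p = 0.94) and 0 had an unadjusted p under 0.05, while 2 of 16255 genes were called. This comparison and the one with naphthalene share the osimertinib libraries, so their values are not independent.

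**Figure D3:**
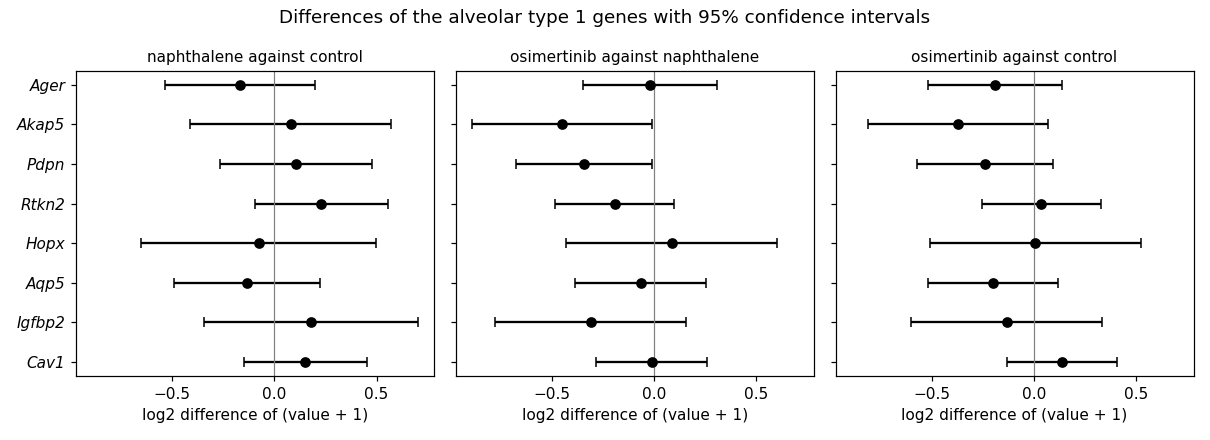
Log2 differences of (value + 1) for the 8 genes with 95% confidence intervals from the limma fit, in the 3 comparisons named above each panel; the vertical line is 0. Only the Akap5 and Pdpn intervals in osimertinib against naphthalene lie wholly below 0, and neither gene passed after adjustment over 16225 genes.

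A further 25 genes of type 1 cells, none of them among the 8, were all measured and kept. The part of other lung cells in their values was not tested. In any of the 3 comparisons 0 of 25 were called with limma, edgeR or DESeq2. With naphthalene against control 21 of 25 lay above 0 (median 0.09), beside 38% of all genes, and 0 had an unadjusted p under 0.05 with limma. Groups did not overlap for 5 of the 25, beside 16.2% of all genes. With osimertinib against naphthalene 22 of 25 lay below 0 (median −0.11), beside 39.5% of all genes, and with osimertinib against control 13 of 25 (median −0.01), beside 52%. Naphthalene 3 stood apart on this list too, with a summed value of 7926 CPM, against 6910 CPM in naphthalene 1 and 6856 CPM in naphthalene 2. Without it 13 of 25 lay above 0 in naphthalene against control (median 0.01) and 14 of 25 below 0 in osimertinib against naphthalene (median −0.02). The 4 most abundant of them by deposited value are given with osimertinib and naphthalene. The tetraspan protein gene Emp2 was at 701 ± 82.3 CPM with osimertinib (SD, n = 5) against 728 ± 106 CPM with naphthalene (SD, n = 3), and the chloride channel family gene Clic5 at 679 ± 99.4 CPM with osimertinib (SD, n = 5) against 739 ± 68.1 CPM with naphthalene (SD, n = 3). The phospholipid transfer gene Sec14l3 was at 642 ± 66.5 CPM with osimertinib (SD, n = 5) against 754 ± 32.9 CPM with naphthalene (SD, n = 3), and Limch1, which encodes a regulator of non-muscle myosin, at 559 ± 105 CPM with osimertinib (SD, n = 5) against 576 ± 24.7 CPM with naphthalene (SD, n = 3).

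Of the 25 further type 1 genes, 3 had an unadjusted p under 0.05 in osimertinib against naphthalene, beside 10.3% of all genes. They were Ndnf, Scnn1b and Scnn1g, chosen here after their values were seen. Groups did not overlap for 1 of the 25 in osimertinib against naphthalene, beside 5.94% of all genes. In osimertinib against control this was also 1 of 25, beside 6.34%. Ndnf, a secreted factor, was at 189 ± 31.6 CPM with osimertinib (SD, n = 5) against 259.5 ± 26.4 CPM with naphthalene (SD, n = 3), a log2 difference of −0.47 with groups that did not overlap (adjusted p = 0.286). Scnn1b and Scnn1g, which encode subunits of the epithelial sodium channel that clears alveolar fluid, differed by −0.26 and −0.30 (adjusted p = 0.448 and 0.473). Scnn1b was also below control, at 45.6 ± 3.88 CPM with osimertinib (SD, n = 5) against 60.4 ± 6.28 CPM in control (SD, n = 3), again without overlap and without a call (adjusted p = 0.613).

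Genes of the pathways in which the members work were called in no comparison with limma or edgeR, and DESeq2 called 1 of them, Ccn1. Of 12 regulators of type 1 fate, 0 were called and 0 had an unadjusted p under 0.05 in each comparison, with medians of −0.01 (naphthalene against control), −0.02 (osimertinib against naphthalene) and −0.04 (against control). Nkx2-1 stood at 97.4 ± 10.3 CPM with osimertinib (SD, n = 5) against 91.1 ± 1.00 CPM in control (SD, n = 3), and the TEAD factor gene Tead1 at 179.8 ± 44.1 CPM with osimertinib (SD, n = 5) against 221 ± 7.89 CPM with naphthalene (SD, n = 3). Among 9 YAP and TAZ targets 0 were called with limma. In the 3 comparisons 1, 3 and 3 had an unadjusted p under 0.05, beside 7.46%, 10.3% and 4.8% of all genes. The 1 with naphthalene against control was lower, and in both comparisons of osimertinib 2 were higher and 1 lower. Ccn1, which encodes a matricellular protein, was at 45.1 ± 9.64 CPM with osimertinib (SD, n = 5) against 111 ± 43.8 CPM in control (SD, n = 3), and DESeq2 called it there. Its relative Ccn2 was at 65.6 ± 12.4 CPM with osimertinib (SD, n = 5) against 38.2 ± 4.95 CPM with naphthalene (SD, n = 3), a log2 difference of 0.75. Both were chosen after their values were seen.

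Of 6 caveola genes kept beside Cav1, 0 were called and 0 had an unadjusted p under 0.05, and the medians lay between −0.08 and −0.0033. Cav2, the partner of caveolin 1, was at 254 ± 10.3 CPM with osimertinib (SD, n = 5) against 242 ± 7.38 CPM in control (SD, n = 3). Of 9 genes of the IGF axis around Igfbp2, 0 were called with limma. In the 3 comparisons 2, 3 and 1 had an unadjusted p under 0.05, beside 7.46%, 10.3% and 4.8% of all genes. These were 1 higher and 1 lower, 1 higher and 2 lower, and 1 higher, in that order. Igfbp5, another binding protein, was at 163 ± 49.3 CPM with osimertinib (SD, n = 5) against 277 ± 66.9 CPM with naphthalene (SD, n = 3), and Igf1, a growth factor that such proteins bind, at 26.8 ± 3.81 CPM with osimertinib (SD, n = 5) against 18.6 ± 1.81 CPM in control (SD, n = 3) (chosen after its value was seen). Of 9 genes of RAGE ligands and signalling, 10 of A-kinase anchoring, 6 podoplanin partners and 3 aquaporins, likewise 0 were called, with at most 1 gene of a list at an unadjusted p under 0.05 in a comparison. Hmgb1, a RAGE ligand, was at 162 ± 6.20 CPM with osimertinib (SD, n = 5) against 169 ± 5.83 CPM in control (SD, n = 3), and Msn, the moesin that links podoplanin to actin, at 559 ± 94.0 CPM with osimertinib (SD, n = 5) against 633 ± 30.9 CPM with naphthalene (SD, n = 3). Aqp1, the water channel of capillary endothelium, was at 312 ± 27.7 CPM with naphthalene (SD, n = 3) against 373 ± 48.7 CPM in control (SD, n = 3).

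Markers of cells that share some of the members were set beside them. Endothelial markers, which bear on Cav1, had 10 of 11 below 0 in naphthalene against control (median −0.22), beside 62% of all genes. Cav1 was at 0.15 there. In osimertinib against naphthalene 10 of 11 endothelial markers lay above 0 (median 0.18), beside 60.5% of all genes. The summed value of the endothelial markers ran from 2807 to 3309 CPM with osimertinib, 2649 to 3035 CPM with naphthalene and 3132 to 3337 CPM in control. Lymphatic markers, which bear on Pdpn, had 5 of 6 above 0 in osimertinib against naphthalene (median 0.32), again beside 60.5% of all genes. Pdpn was at −0.35 there. In osimertinib against control 4 of 6 lymphatic markers lay above 0 (median 0.56), beside 48% of all genes, and Pdpn was at −0.24. In naphthalene against control 5 of 6 lymphatic markers lay above 0 (median 0.16), beside 38% of all genes. The lymphatic sums were 197 to 253 CPM with osimertinib, 191 to 216 CPM with naphthalene and 169.9 to 216 CPM in control. No marker of either list was at 0 in any library, and 0 were called with limma, edgeR or DESeq2. With limma 3, 2 and 1 endothelial and 0, 2 and 4 lymphatic markers had an unadjusted p under 0.05. Of all genes 7.46%, 10.3% and 4.8% did (naphthalene against control, osimertinib against naphthalene, osimertinib against control). Groups did not overlap for 4, 0 and 3 endothelial and 0, 1 and 3 lymphatic markers, beside 16.2%, 5.94% and 6.34% of all genes. In osimertinib against control 8 of 11 endothelial markers lay below 0 (median −0.07), beside 52% of all genes. The medians of the 6 aerocyte, 7 fibroblast and 5 mesothelial markers in osimertinib against naphthalene were 0.17, 0.16 and −0.18, with 0 called. With limma 0, 1 and 1 of them had an unadjusted p under 0.05, beside 10.3% of all genes. The part of these cells in the values of the members was not tested.

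Genes of type 2 cells, the source of new type 1 cells, were set beside the members. The 13 type 2 genes measured lay above 0 in 13 of 13 cases in naphthalene against control (median 0.32) and in osimertinib against control (median 0.46). In osimertinib against naphthalene 11 of 13 did (median 0.16). Of all genes 38%, 48% and 60.5% lay above 0, in the same order. Groups did not overlap for 6, 11 and 0 of the 13, beside 16.2%, 6.34% and 5.94% of all genes. Without naphthalene 3 the type 2 genes above 0 were again 13, 13 and 11, and the median in naphthalene against control was 0.20. With limma 0 were called in the comparisons with control. There 2 and 7 had an unadjusted p under 0.05, beside 7.46% and 4.8% of all genes. With edgeR 0 were called, and DESeq2 called Sftpd and Slc34a2 in osimertinib against control. Sftpc, the surfactant protein C gene, was at 9978 ± 4155 CPM with osimertinib (SD, n = 5) against 6463 ± 494 CPM in control (SD, n = 3). Sftpd, a surfactant collectin gene chosen after its value was seen, was at 447 ± 128 CPM with osimertinib (SD, n = 5) against 266 ± 30.2 CPM in control (SD, n = 3). The mean log2(value + 1) of the 8 type 1 genes minus that of the 13 type 2 genes was −1.96, −2.42, −2.45, −1.87 and −1.71 in osimertinib 1 to 5, −1.94, −1.73 and −1.68 in naphthalene 1 to 3, and −1.50, −1.49 and −1.53 in control 1 to 3. All 8 treated libraries thus lay below all 3 control libraries, while osimertinib and naphthalene overlapped. By the deposited scaling the type 2 means alone were separate from control, at 9.44 to 10.16 (osimertinib), 9.40 to 9.73 (naphthalene) and 9.22 to 9.34 (control). The type 1 means overlapped, at 7.47 to 7.93, 7.66 to 8.05 and 7.73 to 7.84 in the same order. The type 1 minus type 2 difference does not depend on how libraries are scaled, apart from the small effect of the pseudocount. It is given without a test because the members were chosen with results of these data known. It was lowest in osimertinib 2 and 3. In osimertinib 3 the type 2 mean was the highest of all (10.16), and in osimertinib 2 the type 1 mean was low (7.49) as well as the type 2 mean high (9.91). Of 13 transitional or injured epithelial genes kept, 0 were called with limma. With naphthalene against control 2 had an unadjusted p under 0.05, beside 7.46% of all genes, and 5 lay above 0. With osimertinib 1 did relative to naphthalene, beside 10.3%, and 9 lay above 0. Relative to control 3 were higher and 1 lower at this p, beside 4.8%. There 11 lay above 0 (median 0.17), beside 48%, and groups did not overlap for 4, beside 6.34%. The list summed to 1097 CPM in osimertinib 3, against 479 to 570 CPM in the other osimertinib libraries. It summed to 450 to 626 CPM in the naphthalene and control libraries. Krt8 was at 86.8 ± 33.5 CPM with osimertinib (SD, n = 5) against 79.6 ± 11.1 CPM in control (SD, n = 3).

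**Figure D4:**
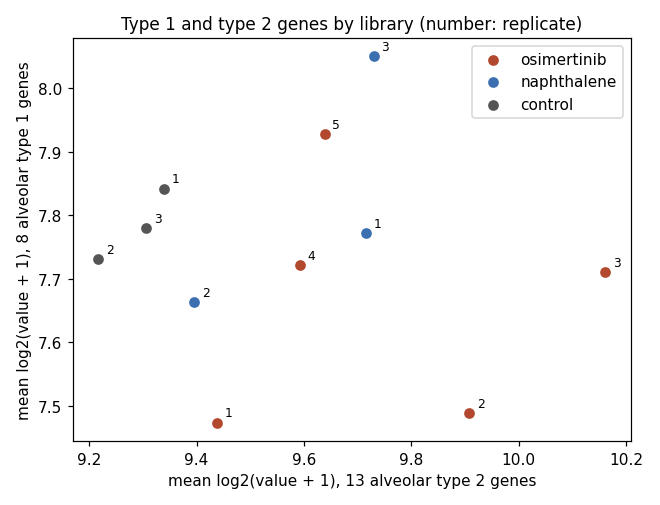
Mean log2(value + 1) of the 8 alveolar type 1 genes (vertical axis) against that of 13 alveolar type 2 genes (horizontal axis) in each library, coloured by group and numbered by replicate; neither axis starts at 0. The 3 control libraries lie furthest left, at type 2 means of 9.22 to 9.34, and osimertinib 3 lies furthest right, at 10.16.

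The genes whose profile over the 11 libraries lay nearest to that of Ager, by root mean square distance of centred log2 values, were Fam174b (0.062), Vegfa (0.088), Sil1 (0.092), Pmp22 (0.10) and Slc52a3 (0.10), out of 9279 candidates of comparable spread. Of these, Vegfa and Pmp22 belong to the 25 further type 1 genes. Vegfa, the vascular growth factor that type 1 cells supply to capillaries, was at 372 ± 63.7 CPM with osimertinib (SD, n = 5) against 433 ± 21.04 CPM in control (SD, n = 3), and Pmp22, a tetraspan membrane protein, at 229.9 ± 40.7 CPM with osimertinib (SD, n = 5) against 242 ± 5.89 CPM in control (SD, n = 3). Among those nearest to Cav1 were Magi1 (0.062), Erbin (0.067), Nkx2-1 (0.071) and Alcam (0.074), out of 10896 candidates. A small distance describes these libraries only.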

How the data were processed

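Libraries came from total lung RNA of mice, with ribosomal RNA removed and a strand-keeping kit, per the labels' protocols. The signal the authors deposited is CPM of a library size scaled by a normalisation factor. The tools listed, without roles, are edgeR, Bowtie2, RSEM 1.3.0 and Trimmomatic 0.38, and the build GRCm39, per the submitters' processing notes. All values (100%) were whole multiples of 1 read within 0.01, and the implied factors equalled edgeR's TMM factors. At 5045361 to 13009975 gene reads per library, 1 read is worth 0.0568 to 0.459 CPM.

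Gene names and merged exon lengths came from GENCODE M21 (GRCm38), used for no gene coordinates. It named 23123 of 23255 IDs. The test was limma 3.58.1 in R 4.3.3, applied to log2(value + 1) of the 16225 genes averaging 1 CPM or more. All 3 groups shared 1 trended fit, leaving 8 residual degrees of freedom. P-values were adjusted by Benjamini-Hochberg across these genes, with a threshold of 0.05. This scale understates changes of low genes. A positive difference means higher in the group named first. Scripts were tested on simulated data.

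Alternatives were pseudocounts of 0.1 and 5, no filter or a mean of at least 5, other scalings, 2 groups only, array weights, a replicate block, a read-share term, libraries of like read share, each library left out, and edgeR 4.0.16 (quasi-likelihood) or DESeq2 1.42.0 on the recovered reads. Leaving out osimertinib 2 and 3 together, and naphthalene 3 from the counts of the further type 1 and the type 2 genes, was chosen after seeing the data. Only between osimertinib and naphthalene did each of 3 same-numbered pairs deviate together (correlations 0.12, 0.16 and 0.52). The replicate block nonetheless used the numbers across all 3 groups. Control pairs had correlations of −0.06, 0.20 and −0.09 with naphthalene and −0.04, 0.07 and −0.15 with osimertinib. The labels do not say what a number stands for. The members and the 17 companion lists were chosen with earlier results of these data known. Named are all 8 members and, of each list, the genes called or else up to 4 with the highest mean. For Ager and Cav1 the rule names the 5 nearest profiles, among genes with a mean of at least 5 and an SD of at least 0.75 times that of Ager or Cav1. Of the lists and profiles, 1 list and 1 profile are not reported here.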

Additional observations from a re-analysis of the deposited data

How the results depend on the processing

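The members called stayed at 0 in every comparison and alternative, except when every library was rescaled to the same total. That setting keeps the gene that took 43.9 to 60.3% of reads in 4 libraries in the totals. It called 8 members with naphthalene against control and 7 with osimertinib against naphthalene, while the median of all genes moved to −1.45, 1.10 and −0.34 in the 3 comparisons (in the order naphthalene against control, osimertinib against naphthalene, osimertinib against control, as below). The members' medians there were −1.46, 1.05 and −0.53, and the genes called 15763, 14420 and 96. Of the naphthalene against control differences, Akap5 was at −1.48, Pdpn at −1.44, Rtkn2 at −1.32, Igfbp2 at −1.36 and Cav1 at −1.41. In osimertinib against naphthalene Ager was at 1.17, Akap5 at 0.73, Pdpn at 0.83, Rtkn2 at 0.99, Aqp5 at 1.11, Igfbp2 at 0.85 and Cav1 at 1.17. In osimertinib against control Rtkn2 was at −0.34, Hopx at −0.37 and Cav1 at −0.24.

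Genes called numbered 21 (naphthalene against control) and 1 (osimertinib against naphthalene) with only the 2 groups compared, 5, 4 and 149 with array weights, 2, 2 and 2 with the read-share term, 11, 21 and 75 with DESeq2, and 38, 47 and 2 without osimertinib 2 and 3. Within libraries of like read share 2 were called in osimertinib against control. Leaving out each library gave 0 to 12, 0 to 11 and 0 to 2. The cause of these changes was not tested.

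With the replicate block, 0 members and, in osimertinib against control, 0 genes were called. The block rests on osimertinib 1 to 3, and it also tied control libraries by number, though these pairs did not all deviate together. In osimertinib against naphthalene the members' median was −0.23 under the block, beside a median gene at 0.06. Akap5 differed by −0.66 (adjusted p = 0.405), Pdpn by −0.49 (adjusted p = 0.339) and Ager by −0.19. There 3 members had an unadjusted p under 0.05, and the share of all genes with such a p was not counted in this fit. In osimertinib against control the members' median was −0.25, beside a median gene at −0.01, and Rtkn2 differed by −0.046 and Hopx by −0.0057.

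Over all alternatives, those above included, the sign turned in 16 of 192, 26 of 200 and 13 of 200 member values. The read-share term could be estimated only from osimertinib 2 against the other osimertinib libraries, so its values rest on 1 library. With that term naphthalene against control gave Ager 0.15, Akap5 −0.21, Hopx 0.53, Aqp5 0.13 and Cav1 −0.041. Osimertinib against naphthalene gave Hopx −0.40 and Cav1 0.14, as within libraries of like share. Array weights gave Ager 0.085 and Cav1 0.040 in osimertinib against naphthalene and Hopx −0.085 in osimertinib against control. DESeq2 gave Hopx 0.0072 in naphthalene against control. Without osimertinib 2 and 3 Ager was at 0.11 and Cav1 at 0.017 in osimertinib against naphthalene, and Hopx at −0.067 in osimertinib against control.

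Leaving out each library, naphthalene against control ran from −0.012 to 0.14 for Akap5, −0.033 to 0.21 for Pdpn, −0.30 to 0.041 for Hopx, −0.30 to −0.03 for Aqp5 and −0.0041 to 0.34 for Igfbp2. Osimertinib against naphthalene ran from −0.11 to 0.071 for Ager, −0.091 to 0.30 for Hopx, −0.17 to 0.098 for Aqp5, −0.26 to −0.09 for Rtkn2, −0.48 to −0.13 for Igfbp2 and −0.052 to 0.048 for Cav1. Osimertinib against control ran from −0.084 to 0.15 for Rtkn2, −0.17 to 0.13 for Hopx, −0.47 to −0.22 for Akap5 and −0.25 to −0.0037 for Igfbp2. The members' median ran from −0.02 to 0.14, −0.21 to −0.03 and −0.22 to −0.07.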
